A study of Drosophila melanogaster with 8 samples.

Results

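The genes described here encode proteins of the mitochondrial ribosome in the fruit fly Drosophila melanogaster. They were taken as every gene whose symbol in the platform's probe table starts with mRpL or mRpS followed by a number, counted from spots paired with 1 gene only, which gave 61 of the 10609 genes measured. Of these, 41 belong by symbol to the large subunit and 20 to the small subunit, and each was measured by a single spot. A further 12 RefSeq genes with symbols of this pattern were not analysed here, among them mRpL14, mRpL27, mRpS5 and mRpS14, and mRpL47, whose spot is shared with Rlb1.

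The mitochondrial ribosome translates the few messages of the mitochondrial genome, which encode core subunits of the respiratory chain and the ATP synthase. Its RNAs are made inside the organelle, whereas all of its proteins are encoded in the nucleus, made on cytosolic ribosomes and imported. Part of the proteins descend from bacterial ribosomal proteins and share their numbers, and the rest were added during the evolution of mitochondria.

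On 8 two-colour arrays, larval RNA was set against adult RNA, each from a mixture of stages of the wild-type strain Canton S. Larvae were in channel 1 on replicates 1, 3, 6 and 8, and adults were in channel 1 on replicates 2, 4, 5 and 7. Per the labels, all samples were portions of one homogenate in the RNA reagent TRIzol, processed separately, and the study's purpose was to assess technical error. As larvae and adults are separate sources, this is read here as 1 homogenate of each stage. The p-values below therefore measure only the technical spread between arrays, and not the spread between animals or cultures.

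Values are turned log2 ratios: the log2 ratio of the channels, centred on each array at the median of the spots paired with 1 gene, with the sign reversed where adults were in channel 1. The sources used here do not say which channel was the numerator, so ratios are given as positive or negative with no stage attached. Errors are SDs over 8 arrays (n = 8). A gene passed the test at an adjusted p of 0.05 in limma, a linear model fitted over all 10609 genes with a stage and a dye column. These were whole animals, in which fewer cells of a type and less RNA per cell cannot be told apart.

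Of the defining stage markers, only Sgs1 and Sgs5 of the larval list were measured, both past the threshold on the negative side. Of 5 measured adult markers, 2 passed with a positive ratio (the yolk protein genes Yp1 and Yp2) and 1 with a negative ratio (Acp29AB). The third yolk protein gene, Yp3, at 0.02, and SP, at -0.29, did not pass (limma adjusted p = 0.806 and 0.0632). Markers of particular tissues moved strongly: 5 of 5 measured testis genes and 5 of 6 flight muscle genes passed on the positive side, and 10 of 10 gut protease genes on the negative side. The median ratios of these lists ranged over the arrays from 0.90 to 2.20, from 1.30 to 2.55 and from -4.36 to -2.01. The remaining flight muscle gene, up, was positive at 0.41 and did not pass (limma adjusted p = 0.197). The ovary list was divided, 2 on each side of 4. The part of tissue makeup in the ratios of the ribosomal protein genes was not tested.

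The mitochondrial ribosomal protein genes stayed close, after centring, to the ratio of the median spot. Their mean ratios ran from -0.75 (mRpS7) to 0.49 (mRpL42), so that 0 of 61 reached a 2-fold difference, against 9.36% of all genes. That count depends on the centring: as deposited, 2 members were past 2-fold, mRpS7 at -1.19 and mRpL44 at -1.07, against 11.2% of all genes. The ratio was under 0.5 in size for 59 of 61 members (96.7%) and for 70.3% of all genes. In size, the median ratio was 0.14 for the members and 0.31 for all genes. The precision was alike, with a median limma standard error of 0.098 for the members and 0.105 for all genes.

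**Figure D1:**
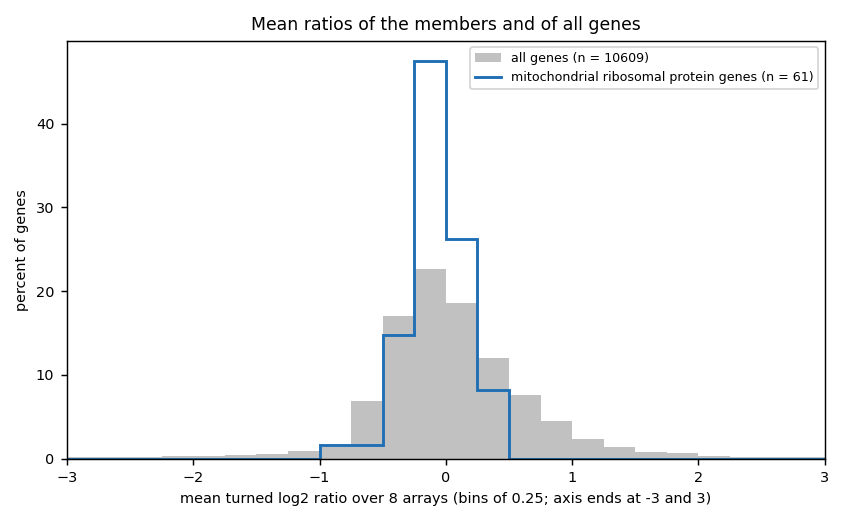
Distribution of the mean turned log2 ratio over 8 arrays for the 61 mitochondrial ribosomal protein genes (blue line) and all 10609 genes (grey), as percent of genes in each bin. The members lie between -0.75 and 0.49, while the grey distribution has tails on both sides; the axis ends at -3 and 3, and a few of all genes lie beyond it.

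In the limma fit 16 of the 61 members (26.2%) passed the threshold, against 57.1% of all genes. On the negative side there were 13, where the fit called 27.9% of all genes, and on the positive side 3, where it called 29.2%. Centring on all spots gave 18 negative members and 1 positive, beside 34.8% and 19.3% of all genes. Without centring there were 48 and 0, beside 56.8% and 9.75%. The median of all genes, -0.01 in the fit, was then -0.15 and -0.45. The members' median of -0.08 lay 0.07 below the median of all genes, a gap that a shift of whole arrays cannot change. The gap was 0.02 without replicate 1 or 4, 0.12 without replicate 7 and 0.11 with array weights. Leaving out replicate 1 gave 5 positive members, leaving out replicate 2, 3, 5 or 6 gave 1, and leaving out replicate 8 gave 0. With single arrays left out, 5333 to 6257 of all genes passed, counting both sides.

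For the 45 members that did not pass, the fit bounds the ratio between the homogenates used, after centring. Like the p-values, the intervals measure only the technical spread between arrays. The 95% interval of the mean ratio lay within 2-fold in either direction for 45 of these 45, and for 61 of 61 members, against 83.7% of all genes. The median half-width of that interval was 0.21 and the widest, of mRpL2, was 0.45. For 54 of 61 members the interval lay within 1.5-fold. As deposited, without centring, 52 of 61 intervals lay within 2-fold, and 59 did with arrays centred on all spots.

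Few members kept the same sign on every array. All 8 ratios were negative for 9 members (14.8%) and all 8 positive for 0, whereas 41.7% of all genes had 8 ratios of the same sign, 19.4% negative and 22.3% positive. The 9 were mRpS7, mRpL44, mRpL37, mRpL20, mRpL36, mRpL32, mRpS11, mRpS18A and mRpS18B.

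**Figure D2:**
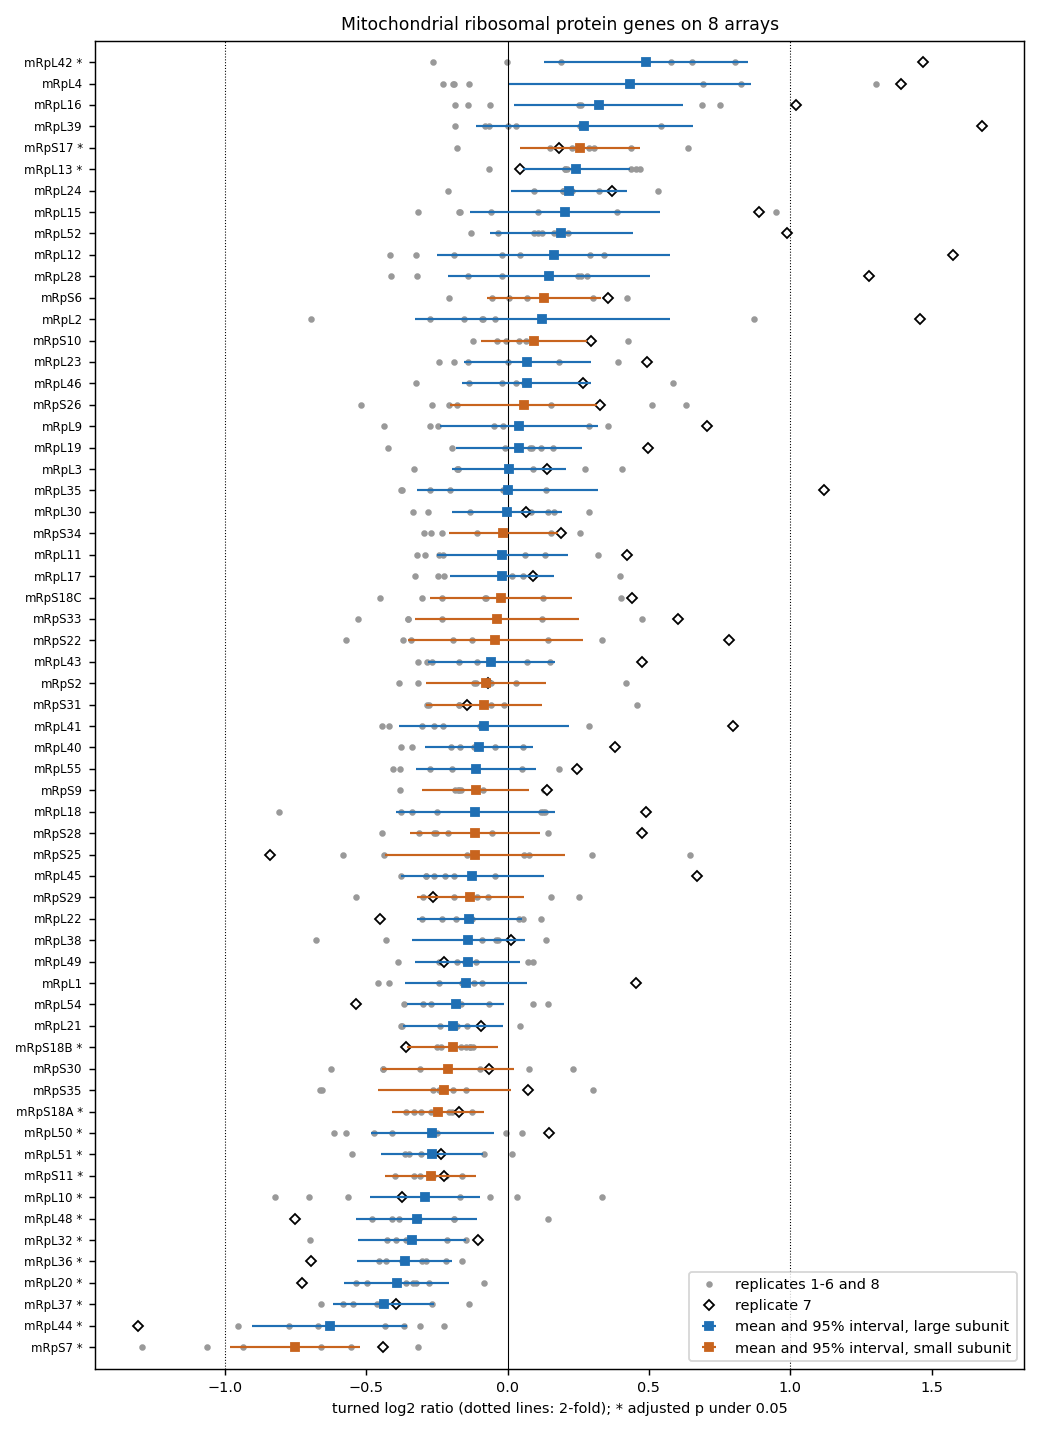
Turned log2 ratios of the 61 genes on each array (grey points, replicate 7 as open diamonds) with the mean and the 95% interval of the limma fit (squares and bars, blue for large and orange for small subunit genes). Genes are ordered by mean ratio, an asterisk marks an adjusted p under 0.05, and no bar crosses the dotted 2-fold lines; the diamonds of replicate 7 are the right-most points of 27 genes.

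On the negative side the small subunit gene mRpS7 had the largest ratio. Its product is the counterpart of bacterial S7, which starts the folding of the small subunit head and touches the transfer RNA on its way out. Its ratios ran from -1.29 on replicate 3 to -0.32 on replicate 2, with a median of -0.71, and all 8 were below 0. The mean of -0.75 ± 0.33 had a limma adjusted p of 0.000134, and leaving out single arrays gave adjusted p values from 9.87e-05 to 0.000878.

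The large subunit gene mRpL44, which encodes a mitochondrion-specific protein with a fold like that of RNase III, ran from -1.31 on replicate 7 to -0.23 on replicate 1, with a median of -0.55. Replicate 7 was its most negative array. The mean was -0.63 ± 0.37 (limma adjusted p = 0.00148) and -0.51 without replicate 7.

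mRpL37, another mitochondrion-specific protein of the large subunit, ran from -0.66 to -0.14 with a median of -0.46 and a mean of -0.44 ± 0.17 (limma adjusted p = 0.00101). The ratios of mRpL20, whose bacterial counterpart binds ribosomal RNA early in assembly, ran from -0.73 to -0.08 with a median of -0.35 and a mean of -0.39 ± 0.19 (0.00247). Replicate 7 held its most negative value. mRpL36, a counterpart of a small zinc-binding bacterial protein, ran from -0.69 to -0.16 with a median of -0.34 and a mean of -0.36 ± 0.17 (0.00214), again lowest on replicate 7. mRpL32, whose yeast counterpart must be cut by the m-AAA protease before it joins the ribosome, ran from -0.70 to -0.11 with a median of -0.35 and a mean of -0.34 ± 0.19 (0.00672). None of these ranges reached 0.

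The 7 other negative members lay between -0.32 and -0.19. They were mRpL48, mRpL10, mRpS11, mRpL51, mRpL50, mRpS18A and mRpS18B. Of all 16 members past the threshold, 9 also passed with any single array left out: the 6 described above, and mRpL48, mRpL10 and mRpS11. For mRpL48 and mRpL10 this was narrow, with a largest limma adjusted p of 0.0495 each. The share of all genes that passed every such fit is not given here. mRpS11, a protein of the small subunit platform, had the narrowest spread of these 9, with 8 ratios between -0.40 and -0.16 and a residual SD of 0.070. mRpL51 did not pass without replicate 4 (limma adjusted p = 0.0539) and mRpS18A not without replicate 5 (0.0511). mRpS18B passed among the leave-one-out fits without replicate 7 (0.0482) and otherwise stood at 0.0556 to 0.100, and mRpL50 did not pass without replicate 1, 3, 4, 5 or 6 (0.0733 to 0.111).

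The positive side held 3 members, none of which passed with every single array left out. mRpL42, a mitochondrion-specific protein of the large subunit, ran from -0.26 on replicate 4 to 1.47 on replicate 7, with a median of 0.54. Its mean of 0.49 ± 0.53 had a limma adjusted p of 0.0242, which was 0.0523, 0.0625 and 0.0688 without replicate 2, 6 and 8, and its mean fell to 0.33 without replicate 7 (0.0325). mRpL42 was among the dimmest spots, at percentile 0.707 of all genes in brightness. Its ratio as deposited was 0.05 (0.747).

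mRpS17, whose bacterial counterpart binds ribosomal RNA directly, ran from -0.18 to 0.64 with a median of 0.26 and a mean of 0.26 ± 0.24 (limma adjusted p = 0.0405). It did not pass without replicate 2, 3, 4, 5, 6 or 8 (0.0588 to 0.123). mRpL13, counterpart of a bacterial protein of early large subunit assembly, ran from -0.07 to 0.47 with a median of 0.21 and a mean of 0.24 ± 0.20 (0.0314). It did not pass without replicate 3, 4, 5 or 8 (0.0658 to 0.102). Each of the pair was negative on 1 of 8 arrays, and their signs reversed as deposited, at -0.18 and -0.19. With arrays centred on all spots neither passed, mRpS17 at 0.12 and mRpL13 at 0.11 (limma adjusted p = 0.446 and 0.508). mRpS17 also did not pass with arrays scaled to equal spread (0.0623) or quantile normalized (0.0541).

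The members with the largest technical spread were mRpL2 and mRpL4. The product of mRpL2 lies at the peptidyl transferase centre, where peptide bonds are made, and its ratios ran from -0.70 on replicate 4 to 1.46 on replicate 7 with a median of -0.09. Its residual SD of 0.75 fell to 0.42 without replicate 7, and its mean turned from 0.12 ± 0.69 to -0.10. The product of mRpL4 lines the tunnel through which the new chain leaves. Its ratios fell into 4 arrays between -0.23 and -0.14 and 4 between 0.69 and 1.39, with a residual SD of 0.71. The mean of 0.43 ± 0.70 did not pass (limma adjusted p = 0.0773), and did so without replicate 1 (0.0274), where it was 0.57, and with array weights (0.0218), where it was 0.30. Without replicate 7 it was 0.23 (0.161).

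The subunits were compared next. Among the 41 large subunit genes 11 passed (26.8%), 9 of them negative and 2 positive, and the median ratio was -0.06. Among the 20 small subunit genes 5 passed, 4 negative and 1 positive, and the median was -0.10. Over all genes 57.1% passed, 27.9% negative and 29.2% positive.

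On each array the mean of the large subunit genes less that of the small subunit genes ran from -0.07 on replicate 3 to 0.27 on replicate 7, with a median of 0.03. It was above 0 on 5 of 8 arrays. The mean difference of 0.06 ± 0.11 was smaller than the SD of single arrays, which is not the error of the mean. Without replicate 7 the difference was 0.03. The mammalian counterparts of mRpS30 and mRpS18A have since been placed in the large subunit, and with both counted there the difference was 0.04. The subunits overlapped on every array, with small subunit genes lying inside the range of the large subunit genes apart from 3: mRpS7 was the lowest member on replicates 1, 3, 5 and 6, mRpS25 the highest on replicate 2 and mRpS17 the highest on replicate 5.

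**Figure D3:**
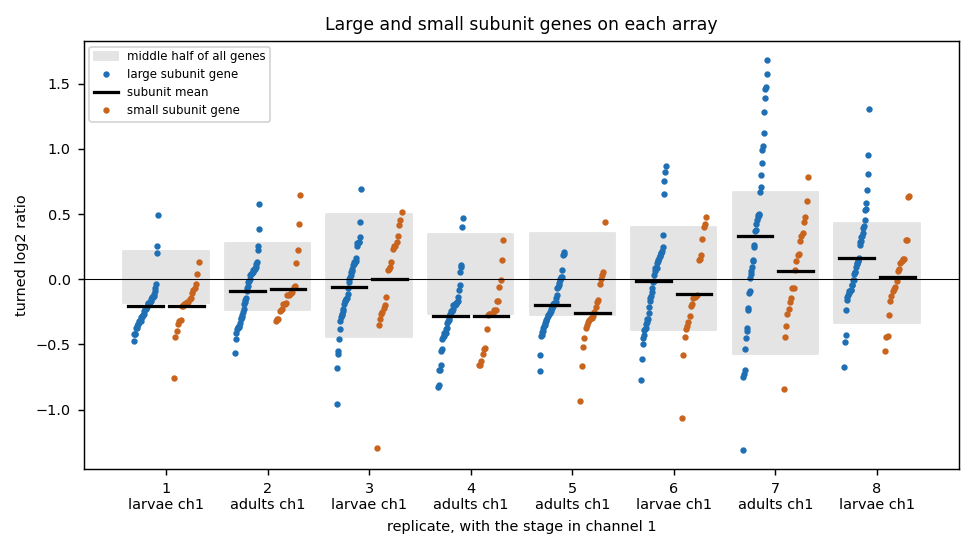
Turned log2 ratios of the 41 large (blue) and 20 small (orange) subunit genes on each of the 8 arrays, with subunit means (black lines) and the interquartile range of all genes (grey boxes). The subunit means were farthest apart on replicate 7, at 0.34 and 0.06.

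Age of the protein was the second division. The 34 members numbered up to L36 or S21 carry the number of a bacterial protein, and 27 carry higher numbers, most of them without a bacterial counterpart. The first group had 8 negative and 2 positive genes past the threshold and a median of -0.01, the second 5 and 1 and a median of -0.11, where 27.9% of all genes were negative and 29.2% positive. On single arrays the mean of the first less that of the second ran from -0.01 to 0.16, above 0 on 6 of 8 arrays. The mean of 0.07 ± 0.06 was about as large as the SD of single arrays, which is not the error of the mean.

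By place in the ribosome, a grouping made after the values were seen and not tested, 26 members were assigned to a part of the particle. These held 6 of the 16 genes past the threshold, and the other 10, mRpL44, mRpL37, mRpL20 and mRpL36 among them, were given no place. The threshold was passed by 57.1% of all genes and 26.2% of the members. The parts hold few genes each, and none was tested against these shares. Of the 3 proteins at the stalk and factor-binding centre, where translation factors dock, mRpL10 stood at -0.29 ± 0.40, mRpL11 at -0.02 ± 0.29 and mRpL12 at 0.16 ± 0.63, of which mRpL10 passed. At the peptidyl transferase centre, mRpL3 was at 0.01 ± 0.26 and mRpL16 at 0.32 ± 0.45, and with mRpL2 these gave 0 of 3 past the threshold. Of 7 genes of the exit tunnel, 1 passed, mRpL32, and mRpL22, mRpL23 and mRpL24 stood at -0.13 ± 0.20, 0.07 ± 0.27 and 0.22 ± 0.22.

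Among 5 genes of the central protuberance, the crown of the large subunit, mRpL48 passed and mRpL18, mRpL38, mRpL40 and mRpL46 lay between -0.14 and 0.07. On the platform of the small subunit, mRpS11 and mRpS18B passed, and mRpS6 (0.13 ± 0.22) and mRpS18C (-0.02 ± 0.32) did not. In the small subunit head mRpS7 passed, while mRpS9 stood at -0.11 ± 0.17, mRpS10 at 0.09 ± 0.18 and mRpS29, a GTP-binding protein known in mammals as DAP3, at -0.13 ± 0.25. The 3 genes for S18 forms, mRpS18A, mRpS18B and mRpS18C, stood at -0.25, -0.19 and -0.02.

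The members' median ratio differed from array to array. It was -0.26 on replicate 4, -0.25 on replicate 5, -0.21 on replicate 1, -0.11 on replicate 2, -0.10 on replicate 6, 0.02 on replicate 3, 0.08 on replicate 8 and 0.19 on replicate 7, while the median of all genes stayed between -0.01 and 0.01. On replicate 1 56 of 61 members were negative and on replicate 4 54, but on replicate 7 40 were positive. The mean of the 8 member medians, -0.08 ± 0.16, was smaller in size than the SD of single arrays, which is not the error of the mean. Both array orientations held high and low arrays, with medians from -0.21 to 0.08 where larvae were in channel 1 and from -0.26 to 0.19 where adults were.

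Replicate 7 held the highest ratio of 27 of 61 members (44.3%), against 28.3% of all genes, and replicate 4 the lowest of 22 (36.1%), against 11.6%. The members' median residual SD was 0.26, and 0.21 without replicate 7, beside 0.30 and 0.24 for all genes. Without replicate 7, 20 members passed. The 16 called with all arrays were among them, and mRpL1, mRpL21, mRpL45 and mRpS35 were added on the negative side, at -0.23, -0.20, -0.25 and -0.30 (limma adjusted p = 0.0266, 0.0441, 0.0128 and 0.0171). The background was 59.0% of all genes without replicate 7.

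Arrays were less correlated across the members than across all genes. Across the 61 members, Pearson's r between 2 arrays ran from 0.02 to 0.71 with a median of 0.36 over 28 pairs of arrays, against 0.56 to 0.95 with a median of 0.82 across all genes. Genes are not independent replicates and all arrays share the same homogenate of each stage, so these values are descriptions. Pearson's r also depends on the range of the ratios, which was narrower for the members. The SD of the 61 mean ratios was 0.23, and that of all genes 0.67. The part of this range in the lower r was not tested.

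With 4 arrays in each orientation, the dye column measured how far the ratio depended on which stage was in which channel. After adjustment limma called 0 of 61 members, with 0.0% of all genes called, and at an unadjusted p of 0.05 it called 2 members, with 4.51% of all genes called. With array weights, the fit called 7 members and 11.1% of all genes. In size, the median dye coefficient was 0.085 for the members and 0.082 for all genes.

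The largest dye coefficient among the members was that of mRpL10, a protein at the base of the stalk. Its ratios were -0.17, -0.06, 0.03 and 0.33 on replicates 1, 3, 6 and 8 and -0.57, -0.82, -0.70 and -0.37 on replicates 2, 4, 5 and 7. The orientations did not overlap, and their means of 0.03 and -0.62 stood on opposite sides of 0. Its dye coefficient was 0.32 (limma adjusted p = 0.914), and its negative mean of -0.29 came from the arrays with adults in channel 1. The other of the 2 was mRpL54, a mitochondrion-specific protein, with orientation means of -0.0003 and -0.37 (limma adjusted p = 0.914).

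**Figure D4:**
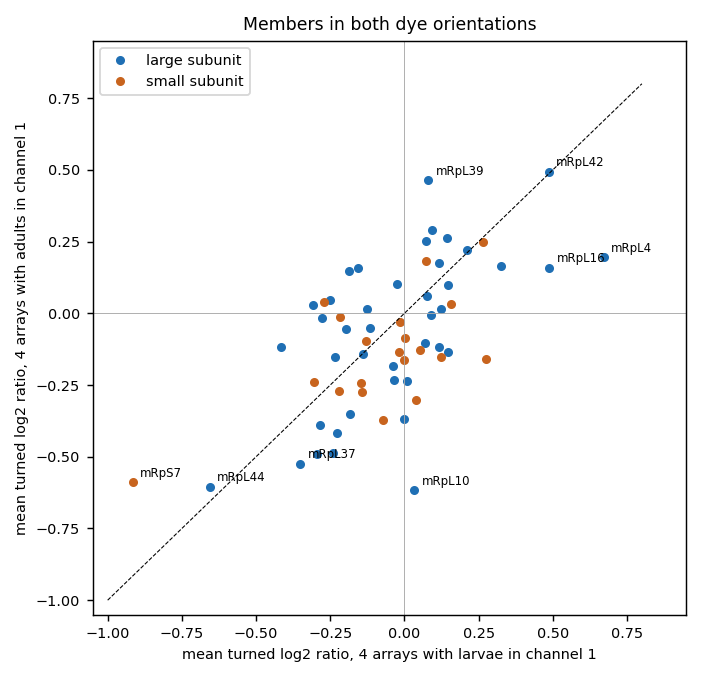
Mean turned log2 ratio of each of the 61 genes over the 4 arrays with larvae in channel 1 (horizontal) and over the 4 with adults in channel 1 (vertical); blue for large and orange for small subunit genes, with equality dashed. mRpS7 and mRpL44 lie far below 0 on both axes, and mRpL10 lies at 0.03 and -0.62.

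Between the orientations, Pearson's r of the mean ratios was 0.61 across the members and 0.94 across all genes, and 0.38 and 0.90 with replicate 7 left out. Dimmer members varied more: across the 61 members, brightness correlated with the residual SD at -0.40 and with the mean ratio at -0.26. These also are descriptions across genes.

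Genes that work with the mitochondrial ribosome were read from lists of related genes. Of 20 measured genes of mitochondrial translation (transfer RNA synthetases, elongation and initiation factors and bonsai, which encodes a further ribosomal protein), 7 passed with a positive and 7 with a negative ratio, and the median ratio was -0.04, beside 29.2% and 27.9% of all genes. The synthetase genes AsnRS-m and TrpRS-m stood at 1.02 ± 0.65 and 1.00 ± 0.33, CysRS-m at 0.94 ± 0.23 and the elongation factor gene mEFTs at 0.70 ± 0.43. These 4 were positive on 8 of 8 arrays, with limma adjusted p values from 9.15e-06 to 0.00136. As deposited 3 were positive and 12 negative, beside 9.75% and 56.8% of all genes.

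Among 10 genes for upkeep and transcription of the mitochondrial genome, 5 passed with a negative ratio and 0 with a positive one, around a median of -0.18. The 50% that passed were all negative, where 57.1% of all genes passed, 27.9% negative and 29.2% positive. mTTF, a transcription terminator, stood at -0.40 ± 0.36 (limma adjusted p = 0.0153), mtDNA-helicase at -0.38 ± 0.34 (0.0160), and PolrMT, the mitochondrial RNA polymerase, at -0.37 ± 0.38 (0.0276). TFAM, which packages mitochondrial DNA, was at 0.36 ± 0.54 and did not pass (0.0730). Leaving out replicate 1, 2, 3, 4, 5, 6 or 8 left 3 negative, and without replicate 4 there was 1 positive. As deposited, 9 were negative, beside 56.8% of all genes.

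Of 19 genes of protein import into mitochondria, 9 passed (7 positive, 2 negative), or 47.4%, around a median ratio of 0.21. Over all genes 57.1% passed, 29.2% positive and 27.9% negative. The import genes ttm3 (1.01 ± 0.34), tomboy40 (0.85 ± 0.38), Tom70 (0.80 ± 0.28) and ttm2 (0.60 ± 0.34) had the largest ratios, with limma adjusted p values from 5.81e-06 to 0.00139. Leaving out replicate 1, 2, 4, 5, 6 or 8 left 1 negative. The split was 4 and 4 with centring on all spots, beside 19.3% and 34.8% of all genes, and 2 and 9 as deposited, beside 9.75% and 56.8%.

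The list for the cytosolic ribosome, the other ribosome of the cell, had 4 positive and 1 negative of 34 (14.7% called). It is a partial list and also holds paralogs and genes with symbols ending in -like. RpL40, RpL10Aa and RpL24-like, among the 4 positive genes, stood at 1.04 ± 0.81, 0.99 ± 0.45 and 0.64 ± 0.61. Over all genes 57.1% were called, 29.2% positive and 27.9% negative. The median of the cytosolic genes was 0.28, but on single arrays it ran from -0.39 to 1.46 and was above 0 on 4 of 8. Their median residual SD was 0.76, against 0.26 for the mitochondrial ones. Leaving out replicate 1 or 4 gave 9 positive genes, leaving out replicate 3 or 6 gave 2 negative ones, and leaving out replicate 7 gave 4. The deposited values, uncentred, gave 2 and 9, beside 9.75% and 56.8% of all genes. No test was made of differences between the lists.

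**Figure D5:**
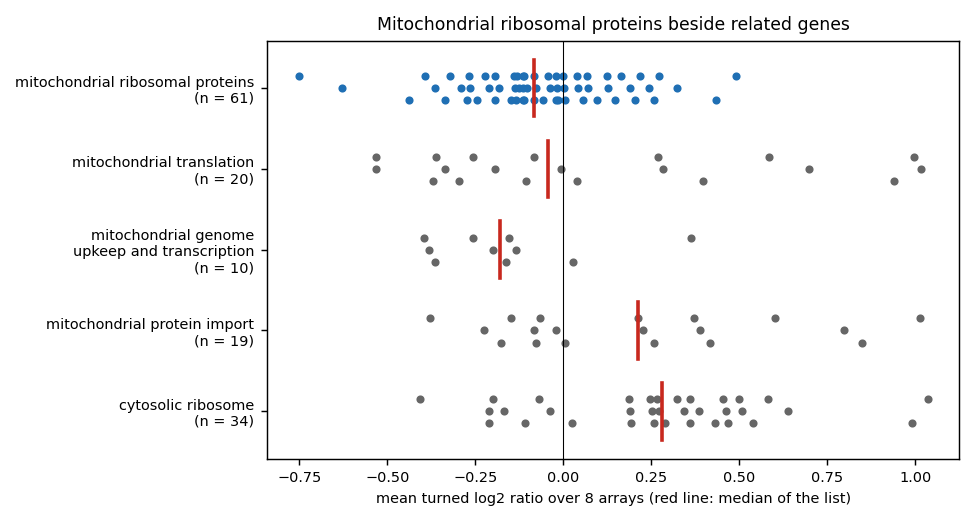
Mean turned log2 ratio over 8 arrays of each gene (points) in the 61 mitochondrial ribosomal protein genes and in 4 related lists, with the median of each list as a red line. The mitochondrial ribosomal protein genes lie between -0.75 and 0.49, while the translation, import and cytosolic ribosome lists each hold a gene above 1.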

How the data were processed

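The authors deposited a log2 ratio for each of 20000 spots on 8 two-channel arrays. Per the labels' descriptions, polyA RNA was labelled by the amino-allyl method, and Spot 2.0 read the scanned images. The dyes, how background was handled and which channel was divided by which are unstated in the labels. The log2 base was checked: 100% of the deposited values of each array were log2 ratios of 2 whole numbers, within a relative tolerance of 1e-12, and a lower bound of spot brightness was taken from these numbers. Precision is limited by there being 8 arrays.

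The probe table paired 12246 spots with 1 gene. Symbols were updated through RefSeq's gene table of Release 6, used for names only. Spots of a gene were averaged, giving 10609 genes. The model (stage and dye columns, 6 residual degrees of freedom) used lmFit and eBayes of limma 3.58.1 under R 4.3.3, with p-values adjusted by Benjamini-Hochberg over all genes. The fit was tested on simulated data. Alternatives changed the centring, scaling, loess curve, dye column, array weights, spot choice or brightness filter, or left out an array. Summaries used Python 3.11.15. Values per array are given for up to 6 members on each side with the largest ratios past the threshold and for the 2 with the largest residual SD, and of each related list up to 4 genes are named. Members, lists and rules were chosen with earlier results of these data known.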

Additional observations from a re-analysis of the deposited data

Results flagged for a closer look

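A single array stood far from the other 7 for 8 of the 61 members, by Dixon's test at the 95% level. Chance flags about 5% of such groups, and the share of all genes flagged is not given here. In 7 of the 8 the array was replicate 7, and the value was high: mRpL39 at 1.68 (others up to 0.54), mRpL12 at 1.58 (up to 0.34), mRpL28 at 1.28 (up to 0.28), mRpL35 at 1.12 (up to 0.14), mRpL52 at 0.99 (up to 0.21), mRpL45 at 0.67 (up to -0.04) and mRpL1 at 0.45 (up to -0.09). These 7 are large subunit genes, as are 41 of all 61 members. Replicate 7 also held the highest ratio of 28.3% of all genes. For mRpS31 the array was replicate 3, at 0.46 against a highest other value of -0.01. None of these 8 passed the threshold with all arrays. Without replicate 7, mRpL45 and mRpL1 passed on the negative side (limma adjusted p = 0.0128 and 0.0266).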

How the results depend on the processing

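Each array carried larval and adult RNA together, so each ratio is a comparison within an array. Arrays of opposite orientation were not paired with each other, because the replicate numbers are not shared between the orientations. The members' positive and negative counts of 3 and 13 were 1 and 18 centred on all spots, 0 and 48 as deposited and 6 and 24 with array weights, and 0 to 5 and 10 to 17 with single arrays left out. Over all 10609 genes, 6057 passed in the fit. That count was 5739 centred on all spots, 7063 as deposited, 7315 with array weights and 5333 to 6257 with single arrays left out. The members' median was -0.52 as deposited, and 2 members were then past 2-fold. Array weights gave 7 members past the dye threshold, beside 11.1% of all genes. In the translation list the counts as deposited were 3 and 12. In the genome upkeep list the negative count was 9 as deposited and 3 to 5 with arrays left out, and the positive count was 1 with array weights and 0 or 1 with arrays left out. In the import list the counts were 4 and 4 centred on all spots and 2 and 9 as deposited, and the negative count was 5 with array weights and 1 to 3 with arrays left out. The cytosolic ribosome list had 2 and 9 as deposited, 9 and 4 with array weights, 3 negative centred on all spots, 7 after the loess curve, 2 with the spot of smallest residual SD, and 4 to 9 positive and 1 to 4 negative with arrays left out. Signs reversed as deposited for mRpS17 (-0.18), mRpL13 (-0.19), mRpL2 (-0.31) and mRpL4 (-0.0034), and for mRpL2 also centred on all spots (-0.015) and without replicate 7 (-0.10), its range with single arrays left out being -0.10 to 0.26. Where arrays were left out, fewer arrays entered the fit. Changing the centring moved all genes of an array by the same amount. The median of all genes was -0.01 in the fit, -0.15 centred on all spots and -0.45 as deposited. The cause of the other differences was not tested. The differences between subunits and between age groups were 0.03 to 0.08 and 0.05 to 0.09 under all alternatives run. Centring, the dye column and spot choice left them at 0.06 and 0.07 and could not change them, as each member had a single spot. On single arrays the subunit difference was above 0 on 5 of 8 and the age difference on 6 of 8. Depth is unknown for these arrays, and dim spots limit single members such as mRpL42.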
